A study of Mus musculus with 2 samples.

Results

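The genes described here are 10 receptors and ligands of 2 growth factor systems of the liver, of 32285 genes in the deposited matrix: the fibroblast growth factor (FGF) receptors Fgfr1, Fgfr2, Fgfr3 and Fgfr4, the co-receptor gene Klb (beta-Klotho), the ligand gene Fgf1, and Hgf, Met, Mst1 and Mst1r. They were found by symbol, and all 10 were present. The material was frozen mouse liver with hepatocellular carcinoma (HCC), from which an area of residual tumour had been microdissected, and 3′ ends of RNA from single nuclei were sequenced on the 10x Genomics platform. The labels list 2 samples of 1 group (tissue liver, disease state HCC) and name no strain, age, genotype or treatment. Barcodes carry no sample name, so the nuclei were taken as 1 pooled sample without replicates, and no untreated or tumour-free liver was analysed here.

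FGF receptors are cell surface tyrosine kinases. Hormone-like FGFs made by gut and liver need a Klotho protein beside the receptor, and FGFR4 with beta-Klotho is the pair through which the gut FGF hormone represses bile acid synthesis in hepatocytes, while FGF1 binds FGF receptors with heparan sulfate and needs no Klotho. HGF, made by mesenchymal cells of the liver, is secreted as an inactive precursor, is cut by serine proteases and then activates the receptor MET on epithelium. The related protein MST1, also called macrophage stimulating protein and secreted by hepatocytes, signals through the receptor RON, which Mst1r encodes.

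A total of 16411 barcodes passed the filters, with 891 to 125991 unique molecular identifiers (UMIs) each and a median of 2806.0. Of these, 6211 met the marker gate of exactly 1 cell class, 9431 met none (median 1365.0 UMIs) and the others met several or a smaller gate. Class names below stand for nuclei like that cell type, read from markers that include none of the 10 genes: 1578 hepatocyte nuclei (804 periportal, 344 pericentral and 430 of neither zone), 1744 Pkhd1-high nuclei, 397 Gpc3-high nuclei, 702 ductal, 157 sinusoidal endothelial, 457 other endothelial, 350 stellate, 311 fibroblast, 126 pericyte and smooth muscle, 111 mesothelial, 63 Kupffer, 108 other macrophage and 107 T cell nuclei. Levels are a gene's share of all UMIs of a class, in CPM, with exact Poisson 95% intervals that cover counting error only. RNA outside nuclei was read from 49929 uncalled barcodes and is given as free RNA; it made up an estimated 8.67% of UMIs in hepatocytes, 13% in Pkhd1-high, 17.4% in Gpc3-high and 41.0% in T cell nuclei. Nuclei are not replicates, and no level has an error between animals.

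The class names are set out here beside the markers of their gates. Nuclei were chosen by these markers, so a high level in their own class is no independent check. Hepatocytes held Cps1 at 3101 CPM, stellate nuclei Reln at 3886, fibroblasts Col1a1 at 405, mesothelial nuclei Wt1 at 455 and Kupffer nuclei Clec4f at 904. Ductal nuclei had Cftr at 288, but Krt19 at 12.8, below free RNA (17.5). Both tumour gates are named by leading genes, since the labels give no cell identity. Ccnd3, which headed the marker list of the Gpc3-high gate, did not set it apart, at 6505 CPM against 5661 in ductal and 5503 in Pkhd1-high nuclei. In Gpc3-high nuclei Cps1 was at 449 CPM, under free RNA (1272), and Gpc3 at 853 against 13.9 in hepatocytes. The 10 markers of this gate summed to 8940.4 CPM in its own, 6759.9 in ductal and 6171 in Pkhd1-high nuclei. In its own and in ductal nuclei alike, 9 of the 10 were at least 2-fold over free RNA, so the gate is not fully separate from the ductal class. Pkhd1 itself was higher in ductal nuclei (4757) than in Pkhd1-high nuclei (2907), and Ahnak2 (554 against 71.2) and Col4a6 (358 against 49.8) told the latter from the ductal class.

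Promoters are shown first for the hepatocyte receptor pair Fgfr4 and Klb, the ductal receptor gene Fgfr3, the HGF receptor gene Met and the hepatocyte ligand gene Mst1. Sequences are the 250 bases before the start that the promoter table gives, from RefSeq for GRCm38.p6, and 8 of the 10 genes were matched in that table. Capitals mark matches, on either strand, to any of 8 short motifs spelled out after the sequences.
Fgfr4 promoter (chr13:55152568-55152817, plus strand): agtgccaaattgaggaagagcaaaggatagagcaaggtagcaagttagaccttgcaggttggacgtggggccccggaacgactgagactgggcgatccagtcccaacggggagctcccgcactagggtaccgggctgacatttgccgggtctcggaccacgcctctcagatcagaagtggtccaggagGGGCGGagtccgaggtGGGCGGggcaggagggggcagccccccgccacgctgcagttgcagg
Klb promoter (chr5:65348161-65348410, plus strand): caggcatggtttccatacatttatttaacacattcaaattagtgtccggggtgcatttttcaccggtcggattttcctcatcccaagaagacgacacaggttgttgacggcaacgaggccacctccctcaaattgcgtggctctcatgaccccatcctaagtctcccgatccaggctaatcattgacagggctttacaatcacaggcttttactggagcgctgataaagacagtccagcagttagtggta
Fgfr3 promoter (chr5:33721474-33721723, plus strand): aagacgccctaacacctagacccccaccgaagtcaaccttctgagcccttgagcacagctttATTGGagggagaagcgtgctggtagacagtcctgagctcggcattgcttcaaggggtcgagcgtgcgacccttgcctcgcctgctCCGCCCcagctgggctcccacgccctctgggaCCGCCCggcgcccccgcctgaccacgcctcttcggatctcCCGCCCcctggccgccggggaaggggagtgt
Met promoter (chr6:17463707-17463956, plus strand): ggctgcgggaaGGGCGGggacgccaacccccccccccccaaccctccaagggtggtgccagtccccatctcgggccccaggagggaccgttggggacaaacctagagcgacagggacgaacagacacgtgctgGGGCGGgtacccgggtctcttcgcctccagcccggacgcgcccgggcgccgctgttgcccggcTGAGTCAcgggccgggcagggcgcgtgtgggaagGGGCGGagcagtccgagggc
Mst1 promoter (chr9:108080186-108080435, plus strand): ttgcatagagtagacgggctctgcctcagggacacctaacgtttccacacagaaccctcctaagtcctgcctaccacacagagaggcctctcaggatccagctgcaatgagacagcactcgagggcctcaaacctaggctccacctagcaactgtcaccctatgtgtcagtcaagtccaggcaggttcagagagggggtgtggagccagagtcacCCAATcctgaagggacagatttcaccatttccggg

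The promoter of Fgfr4, the hepatocyte FGF receptor gene, held 2 GC boxes, at 62 and 46 bases before the start, and its GC content was 64.0%. The window of Klb, the co-receptor gene, held none of the 8 motifs and had a GC content of 48.0%, against a median of 52.4% over all 32851 promoters in the table. The ductal receptor gene Fgfr3 had a CCAAT box at 188 bases and GC boxes at 103, 71 and 31 bases before its first start. In the window of Met, GC boxes lay at 239, 117 and 20 bases and an AP-1 match at 54 bases before the start, with a GC content of 74.0%. That start is the one in the promoter table, and the Met window lies wholly inside the RefSeq gene span given below, downstream of its outermost start. Mst1 had a CCAAT box at 35 bases before the start. Among all promoters of this length, the GC box GGGCGG occurs in 32.7% and the CCAAT box, searched as those 5 letters, in 33.8%. The AP-1 letters TGACTCA occur in 4.46%, and the TATA box, as TATAAA, in 12.4%. The nuclear receptor hexamer AGGTCA is found in 14% and the hexamer GTTAAT in 6.43%. The TEAD letters GGAATG are found in 12.6%, and the C/EBP palindrome TTGCGCAA in 0.164%. No motif searched is part of another. A match is a description of letters and not a site of binding.

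The 10 genes had their highest levels in 6 classes. Fgf1 and Mst1 were highest in pericentral hepatocytes, Fgfr4 and Klb in Gpc3-high nuclei, Fgfr3 in ductal nuclei, Fgfr1 in endothelial nuclei without sinusoidal markers, Fgfr2 and Hgf in stellate nuclei, and Met and Mst1r in mesothelial nuclei. None of the 10 peaked in Pkhd1-high nuclei, although Fgfr1 there could not be told from its highest class. The number of the 14 classes that stood at least 2-fold over free RNA ran from 0 for Mst1 to 10 for Fgfr2.

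**Figure D1:**
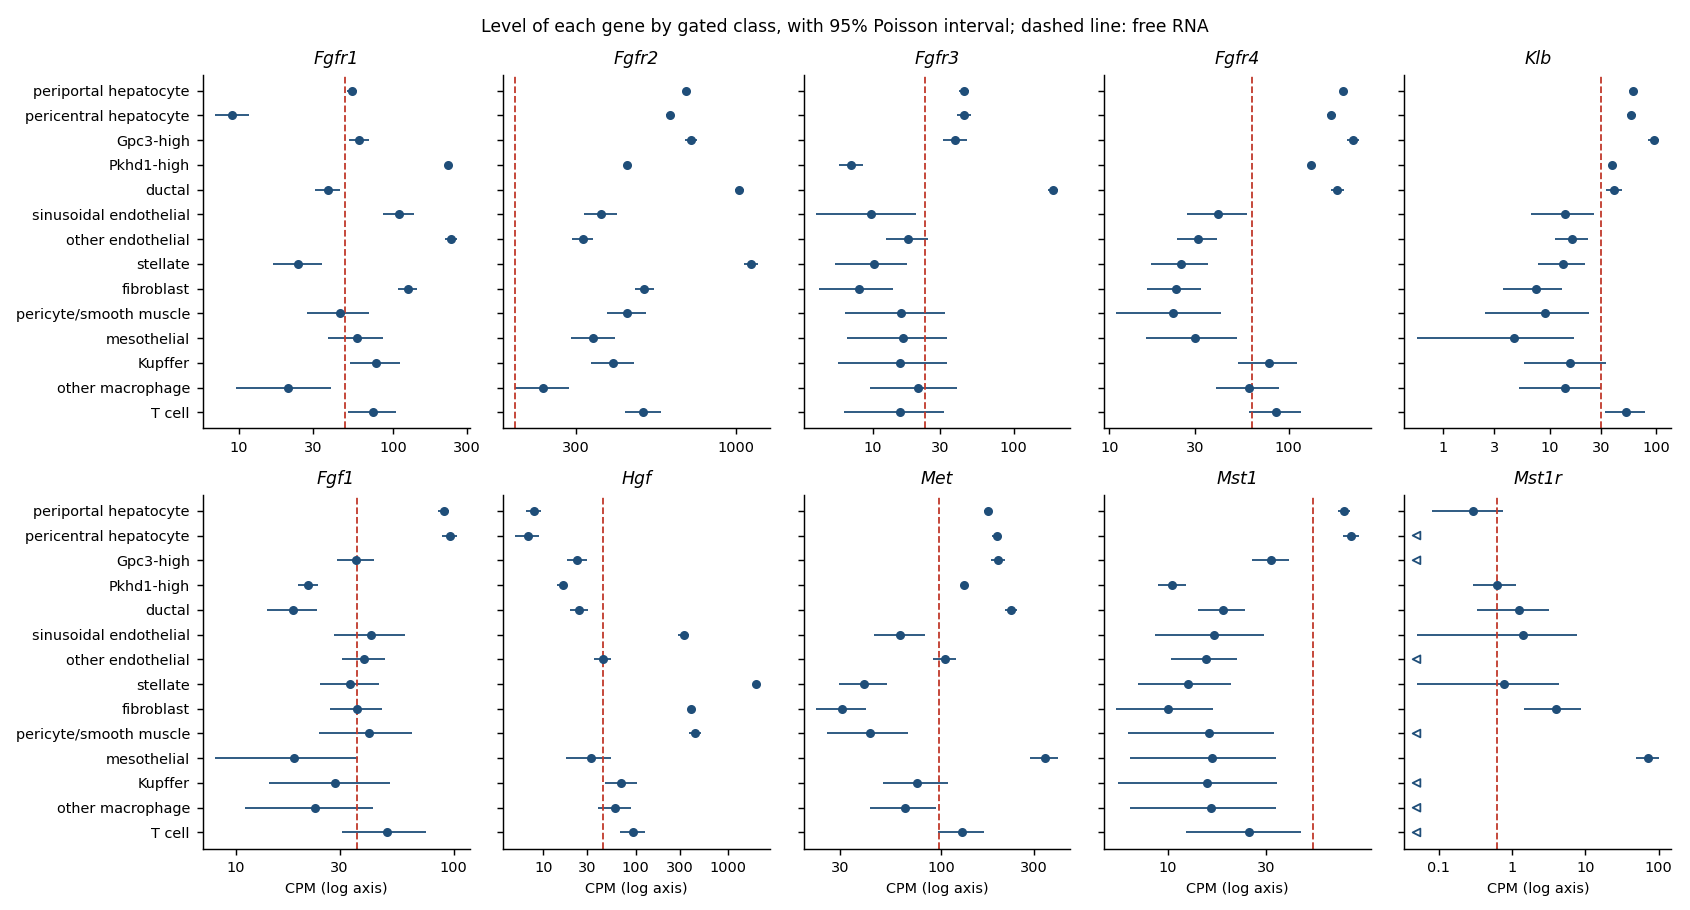
Level of each of the 10 genes (CPM, log axis, a scale of its own in each panel) in 14 gated classes; points are pooled nuclei of a class, bars exact Poisson 95% intervals, open triangles classes with 0 UMIs and the dashed line free RNA. Hgf in stellate nuclei (2016 CPM), Fgfr3 in ductal nuclei (191 CPM) and Mst1r in mesothelial nuclei (72.0 CPM) stand apart from all other classes, and Fgfr1 in pericentral hepatocytes (9.05 CPM) lies below every other class.

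Fgfr4, the receptor that hepatocytes use for hormone-like FGFs (chr13:55152818-55168759, plus strand), was the FGF receptor gene with the highest level per length in hepatocytes. That order is approximate, and in CPM Fgfr2 stood higher there (639 against 191). The Fgfr4 level ran from 22.7 CPM in pericytes over a median of 69.0 to 228 CPM (211 to 246; 663 UMIs) in Gpc3-high nuclei. The 5 epithelial classes were high and did not overlap with the rest: Gpc3-high 228, periportal 200.2, ductal 187, pericentral 173 and Pkhd1-high 134 CPM, while the other 9 lay at 85.2 or below, and free RNA at 62.2. Neighbours in that order were close. Gpc3-high nuclei exceeded periportal hepatocytes by 1.14-fold (1.04 to 1.24), but periportal and ductal nuclei (1.07-fold; 0.978 to 1.17) and ductal and pericentral nuclei (1.08-fold; 0.982 to 1.20) could not be told apart at this depth. Thinned to 1500 UMIs, 26.2% (23.2 to 29.4) of periportal and 25.8% (21.6 to 30.4) of Gpc3-high nuclei held an Fgfr4 UMI, against 4.85% of other macrophages, a class that should lack it. Unthinned, the shares were 90.0%, 70.3% and 13.9%, at median depths of 15061.5, 6169.0 and 3351.0 UMIs.

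Klb, the co-receptor gene (chr5:65348411-65386957, plus strand), was, like Fgfr4, highest in Gpc3-high nuclei. It stood at 93.8 CPM (83.0 to 106; 273 UMIs) in Gpc3-high nuclei, 59.9 in periportal and 57.9 in pericentral hepatocytes, 40.1 in ductal and 38.6 in Pkhd1-high nuclei. Free RNA held 29.9 CPM, and the median over classes was 15.9 CPM. Gpc3-high nuclei were 1.57-fold (1.36 to 1.80) over periportal hepatocytes, while both hepatocyte zones differed by 1.03-fold (0.917 to 1.17). The T cell value of 51.6 CPM rested on 23 UMIs, at most 5 of them in 1 nucleus, in the class with the largest free RNA share. At 1500 UMIs, 10.6% of Gpc3-high, 8.25% of hepatocyte, 5.06% of Pkhd1-high and 3.88% of other macrophage nuclei held a Klb UMI.

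The balance of co-receptor to receptor transcripts differed between epithelial classes. Per 100 Fgfr4 UMIs there were 30.9 Klb UMIs (29.2 to 32.7) in hepatocytes, 41.2 (35.6 to 47.5) in Gpc3-high, 28.8 (26.3 to 31.5) in Pkhd1-high and 21.4 (17.6 to 26.0) in ductal nuclei. Free RNA held 48.1 (44.6 to 51.9). The Gpc3-high ratio lay above that of pooled hepatocytes and the ductal ratio below it, each without overlap of the intervals, while Pkhd1-high nuclei and hepatocytes overlapped. By zone the ratio was 29.9 (27.6 to 32.3) in periportal and 33.5 (29.9 to 37.6) in pericentral nuclei. The pericentral interval overlapped that of Gpc3-high nuclei.

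Fgfr3 (chr5:33721724-33737068, plus strand) marked ductal nuclei. Its level there was 191 CPM (176 to 207; 615 UMIs), and the next class, pericentral hepatocytes, held 44.7, a 4.28-fold difference (3.73 to 4.92). Periportal hepatocytes (44.5) and Gpc3-high nuclei (38.5) could not be told from pericentral ones, and all other classes lay at or below 20.8 CPM, under free RNA (23.6). The lowest class was Pkhd1-high, with 7.05 CPM (5.81 to 8.47; 113 UMIs), 27.1-fold below ductal nuclei (22.2 to 33.5), although both classes share high Pkhd1. Of ductal nuclei thinned to 1500 UMIs, 25.4% (22.2 to 28.8) held an Fgfr3 UMI, against 0.632% of Pkhd1-high and 3.88% of other macrophage nuclei. Per kb of gene span, Fgfr3 (12.5 CPM per kb) and Fgfr4 (11.7) stood at about the same level in ductal nuclei.

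Fgfr1 (chr8:25518759-25575718, plus strand), the widely used mesenchymal and endothelial receptor of the family, varied widely among hepatocyte and tumour classes. It stood at 238 CPM (217 to 260.5; 482 UMIs) in endothelial nuclei without sinusoidal markers, 225 (218 to 233; 3609 UMIs) in Pkhd1-high nuclei, 124 in fibroblasts and 109 in sinusoidal endothelium. The first pair differed by 1.06-fold (0.960 to 1.16), which could not be told from no difference, and Pkhd1-high nuclei exceeded fibroblasts by 1.81-fold (1.56 to 2.11). The low classes were stellate nuclei (24.2), other macrophages (20.8) and pericentral hepatocytes (9.05), all below free RNA at 48.9 CPM. At 1500 UMIs, 27.6% of Pkhd1-high and 27.4% of other endothelial nuclei held an Fgfr1 UMI, against 3.88% of other macrophages. The 10 markers of the endothelial class summed to 132 CPM in Pkhd1-high nuclei and 42.1 in hepatocytes, against 10278 in that endothelial class itself, where Fgfr1 was at 238. The annotation places the antisense gene Gm16159 over Fgfr1, and the sources used here do not say whether counting used strand.

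Fgfr2 (chr7:130162451-130266808, minus strand, in RefSeq) had the highest counts and the least certain ones. It ran from 234 CPM in other macrophages over a median of 469.5 to 1115 CPM (1058 to 1175; 1427 UMIs) in stellate nuclei, with 1024 in ductal, 712 in Gpc3-high and 683 in periportal nuclei. Stellate and ductal nuclei differed by 1.09-fold (1.02 to 1.16), and with clusters in place of gates ductal nuclei led. Free RNA held 190.3 CPM in barcodes of 500 to under 850 UMIs and 462 CPM in barcodes of 1 to 100 UMIs. In the GENCODE annotation, 1 of 27 Fgfr2 transcripts reaches to position 133123350, while the others end by 130266263, and the long model lies over 22 genes of its strand and 26 of the other. Among them is Oat, a marker of the pericentral gate. The sources used here name no annotation for the counting, so reads of those neighbours may be part of the Fgfr2 counts. For this reason the make-up of receptors below leaves Fgfr2 out.

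Among UMIs of Fgfr1, Fgfr3 and Fgfr4, the make-up differed between the larger classes, and it depends on no scaling between classes. Hepatocytes gave 12.8% to Fgfr1, 17.2% to Fgfr3 and 70.0% (68.9 to 71.0; Clopper-Pearson) to Fgfr4. Gpc3-high nuclei gave a like share to Fgfr4, 69.8% (66.8 to 72.7). Against pooled hepatocytes they gave more to Fgfr1, 18.4% (16 to 21) against 12.1 to 13.6. They gave less to Fgfr3, 11.8% (9.81 to 14), also without overlap of intervals. Periportal hepatocytes alone gave 18.2% to Fgfr1 and 14.9% to Fgfr3, and both intervals overlapped those of Gpc3-high nuclei. Pericentral hepatocytes gave 3.09 to 5.09% to Fgfr1 and 17.8 to 21.8% to Fgfr3, without overlap. The Fgfr1 and Fgfr3 contrasts were thus not seen against periportal nuclei. Pkhd1-high nuclei gave 61.4% (60.2 to 62.7) to Fgfr1, 1.92% to Fgfr3 and 36.6% to Fgfr4. Ductal nuclei split between Fgfr3 (46.0%) and Fgfr4 (45.0%), with 9.04% for Fgfr1. This is an average over unlike nuclei: in cluster 6, with 861 nuclei, Fgfr1, Fgfr3 and Fgfr4 were at 13, 181 and 221 CPM, and in cluster 21, with 135 nuclei that were also mostly ductal, at 130.3, 374 and 113 CPM. Other endothelial nuclei (83.0%) and fibroblasts (79.8%) gave most to Fgfr1, and free RNA gave 36.3%, 17.5% and 46.2%. The Gpc3-high and Pkhd1-high classes thus lay on opposite sides of free RNA in their Fgfr1 share.

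**Figure D2:**
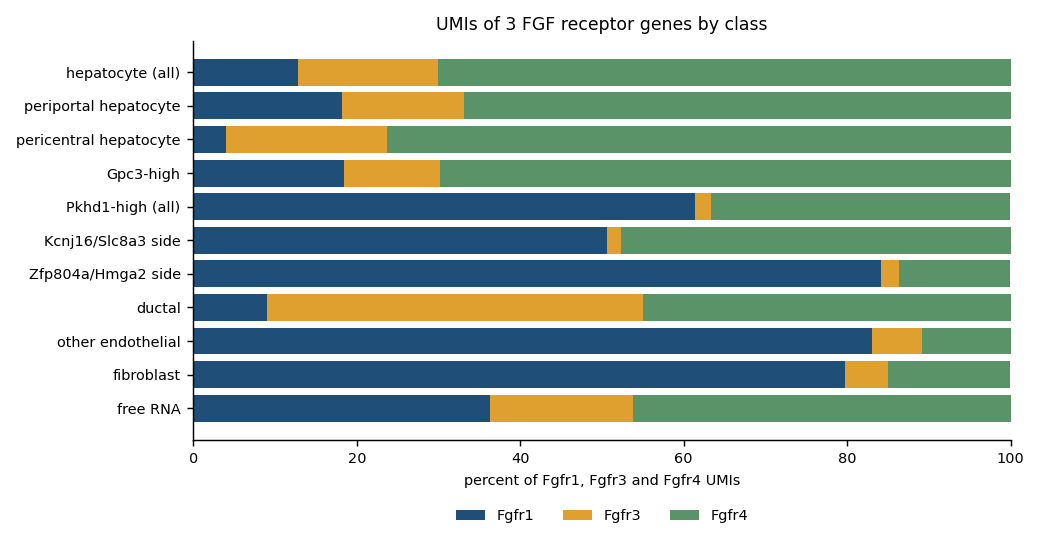
Percent of Fgfr1, Fgfr3 and Fgfr4 UMIs given by each gene (x axis) in 10 classes or groups of nuclei and in free RNA (y axis); bars are stacked and add up to all UMIs of the 3 genes, with Fgfr2 left out. Hepatocytes and Gpc3-high nuclei give about the same part to Fgfr4 (70.0% and 69.8%), Pkhd1-high nuclei give 61.4% to Fgfr1, and ductal nuclei are the class with a large Fgfr3 part (46.0%).

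Met, the HGF receptor gene (chr6:17463349-17573980, plus strand), was present in all epithelial classes and highest in mesothelium, the lining of the liver surface. It ran from 30.7 CPM in fibroblasts over a median of 116 to 342 CPM (289 to 402; 147 UMIs) in mesothelial nuclei. Ductal nuclei held 229.9, Gpc3-high 196, pericentral 193, periportal 174 and Pkhd1-high 131 CPM, with free RNA at 97.1. Mesothelial nuclei exceeded ductal ones by 1.49-fold (1.24 to 1.78), and Gpc3-high and pericentral nuclei could not be told apart (1.01-fold; 0.918 to 1.12). Both classes with the most Hgf were low for Met, with 39.9 CPM in stellate and 43.1 in pericyte nuclei, below free RNA. At 1500 UMIs, 43.3% (33.6 to 53.3) of mesothelial, 27.4% of ductal, 22.7% of hepatocyte and 5.83% of other macrophage nuclei held a Met UMI.

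Mst1r, which encodes the RON receptor (chr9:107906858-107920383, plus strand), had its highest level in mesothelium, with 31 of its 57 UMIs over the classes. Mesothelial nuclei held 72.0 CPM (48.9 to 102), from 31 UMIs in 24 of 111 nuclei. Fibroblasts came next with 6 UMIs or 4.01 CPM, 18-fold lower (7.39 to 52.7), and each other class held at most 1.40 CPM. Hepatocytes gave 7 UMIs (0.248 CPM; 0.0998 to 0.512) from 1578 nuclei, below free RNA at 0.626, and 7 classes held no UMI. Thinned to 1500 UMIs, 0 of 395 Gpc3-high nuclei held one, which allows up to 0.759% of nuclei with a UMI at that depth (3 counts) and sets no limit on nuclei that express the gene. One group of nuclei without a gate also held it: cluster 19, with 147 nuclei of which 129 met no gate, had Mst1r at 23.0 CPM (14.9 to 34.0; 25 UMIs) and Met at 248 CPM, and it was picked out after its values were seen.

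Hgf (chr5:16553495-16619439, plus strand) was the ligand gene with the sharpest source. It was at 2016 CPM (1939 to 2095; 2579 UMIs) in stellate nuclei, 439.6 in pericyte and smooth muscle, 399.5 in fibroblast and 330.4 in sinusoidal endothelial nuclei. All other classes lay at or below 94.2 CPM, free RNA at 44.5, and the lowest class was pericentral hepatocytes with 6.75 CPM, 299-fold below stellate nuclei (224 to 407). Stellate nuclei exceeded pericytes by 4.59-fold (3.96 to 5.33), while pericytes and fibroblasts could not be told apart (1.10-fold; 0.931 to 1.30). At 1500 UMIs, 86.3% (82.2 to 89.8) of stellate and 32.0% (26.8 to 37.6) of fibroblast nuclei held an Hgf UMI, against 10.7% of other macrophages. The 9 stellate markers summed to 1278 CPM in pericytes, 1060.3 in fibroblasts and 204 in sinusoidal endothelium, against 6462 in stellate nuclei and 195 in free RNA, and their part in the Hgf levels of these classes was not tested.

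Epithelial nuclei with several Hgf UMIs often met a stellate marker, and those with a single one seldom did. Of 28 Pkhd1-high nuclei with at least 2 Hgf UMIs, 21 (75.0%) met a stellate marker, against 1.10% of the 1639 without Hgf, and 16 were doublet calls. The same held for 17 of 32 such hepatocytes (53.1%, against 1.02%) and 7 of 11 such Gpc3-high nuclei (63.6%, against 0.270%). Among nuclei with 1 Hgf UMI, it was 3 of 77 Pkhd1-high nuclei (3.90%), 5 of 74 hepatocytes (6.76%) and 1 of 16 Gpc3-high nuclei (6.25%). Summed stellate markers in these Pkhd1-high nuclei were at 895 CPM, against 32.4 in those without Hgf. Epithelial Hgf levels, between 6.75 and 24.6 CPM, all lay under free RNA, and the part of stellate RNA in them was not tested further.

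Mst1, a secreted relative of HGF (chr9:108080409-108085027, plus strand), and Fgf1 (chr18:38838672-38929470, minus strand) were both hepatocyte ligand genes. Mst1 stood at 77.3 CPM (70.9 to 84.1; 538 UMIs) in pericentral and 71.3 (66.9 to 75.9; 968 UMIs) in periportal hepatocytes, then 31.6 in Gpc3-high nuclei and 24.7 or less in the other classes. Free RNA held 50.4 CPM, so hepatocytes were at most 1.53-fold above it and all other classes were below. Barcodes of 1 to 100 UMIs held 74.8 CPM, the hepatocyte level itself. Per kb of gene span, Mst1 was the highest of the 10 genes in hepatocytes, at 15.9 CPM per kb, followed by Fgfr4 at 12, Fgfr2 at 6.12, Fgfr3 at 3.06, Met at 1.65, Klb at 1.53, Fgf1 at 0.987, Fgfr1 at 0.614, Hgf at 0.121 and Mst1r at 0.0184. Gene span was used because nuclear RNA is largely unspliced, but priming does not read all of a span alike, so this order is approximate. Mst1 lies against Rnf123 on the other strand, and Fgf1 against AC110730.1.

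Fgf1 had 95.9 CPM (88.8 to 104; 668 UMIs) in pericentral and 90.0 (85.1 to 95.2; 1223 UMIs) in periportal hepatocytes, which differed by 1.07-fold (0.968 to 1.17). T cell nuclei came next with 49.3 CPM from 22 UMIs, and ductal nuclei were lowest with 18.4, against 35.9 in free RNA. At 1500 UMIs, 12.9% (11.3 to 14.7) of hepatocytes held an Fgf1 UMI, against 2.59% of Pkhd1-high, 1.43% of ductal and 5.83% of other macrophage nuclei. Fgf1, like Mst1, thus stood at or below free RNA in both tumour gates and in ductal nuclei.

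**Figure D3:**
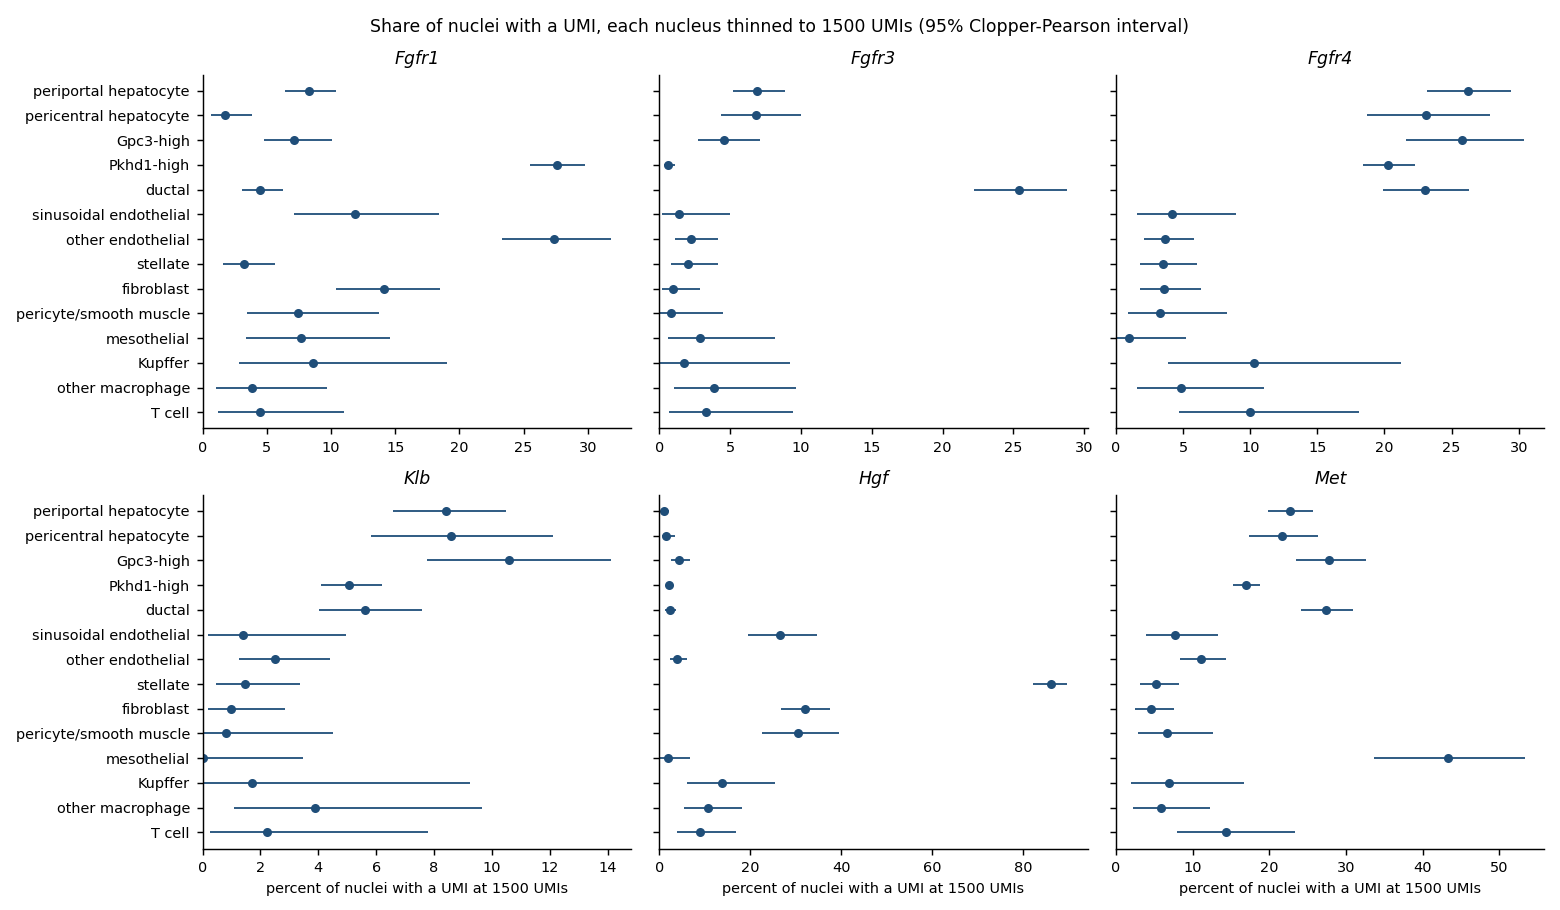
Percent of nuclei of each class with at least 1 UMI of Fgfr1, Fgfr3, Fgfr4, Klb, Hgf or Met after each nucleus was thinned to 1500 UMIs (x axis, a scale of its own in each panel), with Clopper-Pearson 95% intervals. Hgf in stellate nuclei (86.3%), Met in mesothelial nuclei (43.3%) and Fgfr3 in ductal nuclei (25.4%) stand above every other class.

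Comparisons between classes used genes with at least 20 UMIs over both, and a gene was called when its log2 ratio, with a pseudocount of 1 CPM, was at least 1 in size. With 1 pooled sample there is no test between classes, and intervals of folds cover counting error only. Mst1r passed the count filter in none of the comparisons, so 9 genes entered each.

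Pkhd1-high nuclei had more Fgfr1 than hepatocytes and less Fgfr3, Mst1 and Fgf1. Fgfr1 was 6.44-fold higher (6.0 to 6.91), at 225 against 35.0 CPM. Fgfr3 was 6.66-fold lower (5.49 to 8.14; 7.05 against 46.9 CPM), Mst1 7.02-fold lower (6.0 to 8.27; 10.5 against 73.6) and Fgf1 4.17-fold lower (3.72 to 4.68; 21.5 against 89.6). Fgfr2, Fgfr4, Klb and Met were lower by 1.39-fold to 1.53-fold and were not called. Hgf was 2.02-fold higher (1.69 to 2.43) at a log2 ratio of 0.93, which was not called, and the stellate markers in its nuclei are given above. So 1 of 9 genes was called higher, where 19.6% of all tested genes were, and 3 of 9 lower, where 12.7% were. The median log2 ratio was -0.53 over the 9 genes and 0.21 over all genes tested. Scaling by the median ratio of genes instead of total UMIs moved all log2 ratios by 0.20 here and by 0.23 in the Gpc3-high comparison, without changing the direction of a called gene.

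Gpc3-high nuclei were near hepatocytes in their receptor genes and lower in Fgf1 and Mst1. Fgfr4 (1.19-fold higher; 1.10 to 1.30), Met (1.07-fold higher; 0.982 to 1.17), Fgfr2 (1.11-fold higher) and Fgfr3 (1.22-fold lower; 1.00 to 1.49) stayed within 2-fold of hepatocytes, as did Klb (1.59-fold higher; 1.40 to 1.81) and Fgfr1 (1.72-fold higher; 1.46 to 2.02). With median-ratio scaling the log2 ratios of Fgfr2 and Met turned to -0.07 and -0.13. Fgf1 was 2.51-fold lower (2.06 to 3.08; 35.7 against 89.6 CPM) and Mst1 2.33-fold lower (1.89 to 2.90; 31.6 against 73.6 CPM), so 2 of 9 genes were called lower, where 8.17% of all tested genes were. Hgf was called higher, 1 of 9 against 19% of all genes, at 2.93-fold (2.20 to 3.86; log2 ratio 1.44), though its 23.4 CPM lay under free RNA. With clusters in place of gates that log2 ratio was -0.26 and 0 of 9 genes were called, and with a pseudocount of 10 CPM it was 0.89. The median log2 ratio was 0.16, beside 0.26 over all genes tested. Median-ratio scaling moved the calls over all genes from 2969 higher and 1280 lower to 2280 and 1599.

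Among hepatocytes, Fgfr1 was the 1 gene of the 9 tested that was called between zones. It was 6.0-fold lower in pericentral than in periportal nuclei (4.63 to 7.89), at 9.05 (6.95 to 11.6; 63 UMIs) against 54.3 CPM (50.4 to 58.3; 737 UMIs), and nuclei of neither zone lay between them at 24.3 (21.0 to 28.1). An Fgfr1 UMI was seen in 372 of 804 periportal nuclei (46.3%), 24.9% of those without zone and 30 of 344 pericentral nuclei (8.72%), although pericentral nuclei were deeper, with a median of 18149.5 UMIs against 15061.5. At 1500 UMIs the shares were 8.27% (6.45 to 10.4) and 1.78% (0.654 to 3.82). The Pkhd1-high markers summed to 289 CPM in periportal and 282 in pericentral nuclei, and the endothelial markers to 38.8 and 32.3. Markers of the Gpc3-high gate, whose nuclei held Fgfr1 at 60.2 CPM, summed to 567 CPM in periportal and 318 in pericentral nuclei. Their part in the Fgfr1 difference was not tested. In hepatocyte clusters, drawn from all variable genes, Fgfr1 was at 46.4 CPM in mostly periportal cluster 3, 32.0 in cluster 13 and 8.23 in mostly pericentral cluster 18.

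The other 8 genes differed between zones by at most 1.17-fold, which was the value for Hgf (0.821 to 1.68). Fgfr4 was 1.16-fold lower (1.08 to 1.24) and Met 1.11-fold higher (1.04 to 1.19) in pericentral nuclei, while Klb (1.03-fold; 0.917 to 1.17), Fgf1 (1.07-fold; 0.968 to 1.17) and Mst1 (1.08-fold; 0.974 to 1.21) could not be told from no difference. Thus 1 of 9 was called lower, where 3.18% of all tested genes were, and 0 of 9 higher, where 3.42% were. Median log2 ratios were -0.05 for the 9 genes and -0.02 for all genes.

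Stellate nuclei had more Hgf and Fgfr2 than fibroblasts and less Fgfr1. Hgf was 5.05-fold higher in stellate nuclei (4.61 to 5.52; 2016 against 399.5 CPM) and Fgfr2 2.22-fold higher (2.03 to 2.43; 1115 against 502 CPM), so 2 of 9 were called higher, where 4.51% of all genes were. Fgfr1 was 5.13-fold lower (3.49 to 7.76; 24.2 against 124 CPM), 1 of 9 against 9.72% called lower among all genes. The fibroblast markers also reached 2383 CPM in stellate nuclei, against 5133 in fibroblasts, and Dcn of that list was higher in stellate nuclei (1489 against 483), so these gates are not fully separate. The other 6 genes were at or below free RNA in both classes, apart from Fgf1 in fibroblasts at 36.1 CPM against 35.9. Median log2 ratios were 0.31 for the 9 genes and -0.04 for all.

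Pkhd1-high nuclei were themselves uneven. A split made after the data were seen set 219 nuclei that met Zfp804a or Hmga2 and none of Kcnj16, Slc8a3, Grm3 and Dclk1 against 666 that met at least 2 of those 4 and neither of the first pair. Fgfr4 was at 59.9 CPM (50.4 to 70.7) on the Zfp804a/Hmga2 side, about the free RNA level of 62.2, and at 171 (161 to 181) on the Kcnj16/Slc8a3 side, 2.85-fold apart (2.39 to 3.42). Klb went the other way, with 67.2 CPM against 31.3, 2.15-fold higher (1.73 to 2.66). Hence Klb UMIs per 100 Fgfr4 UMIs were 112 (88.7 to 142) on the Zfp804a/Hmga2 side and 18.3 (15.7 to 21.3) on the other.

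Fgfr1 was 2.05-fold higher on the Zfp804a/Hmga2 side (1.87 to 2.24; 370.2 against 181 CPM), above every gated class. It made up 84.1% (81.8 to 86.3) of Fgfr1, Fgfr3 and Fgfr4 UMIs there and 50.6% (48.5 to 52.6) on the Kcnj16/Slc8a3 side. Fgfr2 was 2.03-fold lower (242 against 492 CPM), and Hgf was 2.80-fold lower (1.68 to 4.94), on 17 UMIs against 134. The Hgf log2 ratio went from -1.37 to -0.70 without doublet calls and to -0.28 with 1 more marker required, and each ends that call. So 2 of 9 genes were called higher, where 6.09% of all genes were, and 3 of 9 lower, where 8.99% were; with a pseudocount of 10 CPM 1 gene was called in all. Median log2 ratios were 0.47 for the 9 genes and -0.10 for all. In clusters, Fgfr1 was at 332 CPM in cluster 8, of 842 nuclei with 456 of them ungated, which held 207 of the 219 Zfp804a/Hmga2 nuclei, and 197 in cluster 4, which held 560 of the 666 others, with Fgfr4 at 55.7 and 170.4 CPM.

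**Figure D4:**
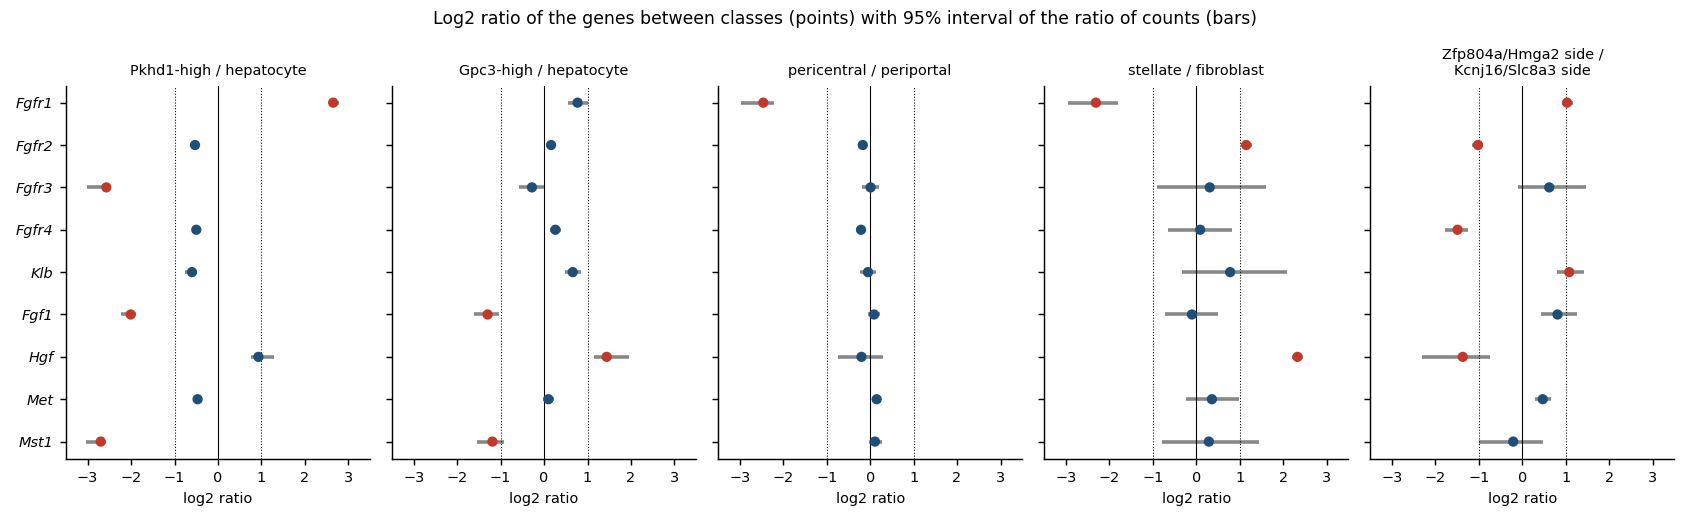
Log2 ratio (x axis, pseudocount 1 CPM) of 9 of the 10 genes (y axis) between pairs of classes, 1 panel a comparison; points are ratios of pooled nuclei, red where called and blue where not, bars 95% intervals of the ratio of counts, which cover counting error only. Fgfr1 is the gene past a log2 ratio of 1 in size in the zone comparison (-2.46), and Fgfr3 (-2.57) and Mst1 (-2.70) are lowest in Pkhd1-high nuclei against hepatocytes.

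Counts of listed genes are read against the shares of all genes called in the same comparison, printed with it. Of 21 other FGF family genes (not all for receptor ligands, as Fgf13 below), 11 had at least 20 UMIs in the Pkhd1-high comparison. Of these, 3 were called higher and 1 lower, where 19.6% and 12.7% of all genes were (median log2 ratio 0.36, beside 0.21 for all genes). Fgf7, a mesenchymal FGF for epithelium, was 6.53-fold higher (8.11 against 1.24 CPM) and Fgf18 was at 49 UMIs against 0, at least 28.7-fold higher against a floor of 3 counts. Fgf21, the hepatocyte FGF hormone, was 11.8-fold lower (7.14 to 20.8; 0.998 against 11.7 CPM), and 2.85-fold lower in Gpc3-high nuclei. There Fgf13, which encodes an intracellular FGF relative, was 8.22-fold higher. Of 8 listed FGF genes tested in Gpc3-high nuclei, 2 were called higher and 1 lower, where 19% and 8.17% of all genes were. Fgf2 (211 CPM) and Fgf9 (53.4 CPM) were highest in mesothelial nuclei, and the gut hormone gene Fgf15 had no UMI in any class.

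In the stroma, fibroblasts held more Fgf2 and Fgf7 than stellate nuclei did. Of 4 listed FGF genes tested, 3 were lower in stellate nuclei, where 9.72% of all genes were. These were Fgf7 (5.98-fold, 3.13 against 18.7 CPM), Fgf14 (4.52-fold) and Fgf2 (4.30-fold, 24.2 against 104 CPM). Fgf12 was 2.98-fold higher, at 139 against 46.8 CPM, where 4.51% of all genes were called higher. Fgf1 could not be told apart (33.6 against 36.1 CPM). Thus the class with the most Hgf was not the class with the most Fgf2 or Fgf7. None of 7 listed FGF genes tested was called between hepatocyte zones, where 3.42% of all genes were higher and 3.18% lower.

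Adaptor genes were higher or not called in both tumour gates. Of 12 adaptor genes, 5 were called higher and none lower in Pkhd1-high nuclei (median 0.37) and 5 higher and none lower in Gpc3-high nuclei (median 0.54, beside 0.26 for all genes), where 19.6% and 19% of all genes were called higher. Gab2, a docking protein for MET and FGF receptors, was 10.1-fold higher in Pkhd1-high (353 against 35.0 CPM) and 6.34-fold higher in Gpc3-high nuclei. Frs3, the docking protein of FGF receptors and other kinases, was 9.38-fold and 11.6-fold higher. The same hepatocyte nuclei served as reference in both comparisons. Of all genes, 12.7% were called lower in Pkhd1-high and 8.17% in Gpc3-high nuclei. Of the partners, Lctl, a Klotho family gene, was 28.4-fold higher in Pkhd1-high nuclei (129 against 8 UMIs), with 2 of 6 called higher and none lower; of these UMIs 87 lay on the Kcnj16/Slc8a3 side and none on the other, at least 10.3-fold apart against the floor. Flrt3 was 11.2-fold higher in Gpc3-high nuclei, the 1 of 5 called, and Flrt2 led in mesothelial nuclei at 1443 CPM.

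Feedback and target genes of the ERK pathway, which reads out receptor kinase activity, had the highest median of the 8 lists in the Gpc3-high comparison, with 7 of 11 called higher and 1 lower (log2 ratio 1.47). Il17rd, an inhibitor of FGF signalling, was 10.1-fold higher (9.28 CPM, free RNA 2.62) and Dusp4, an ERK phosphatase gene, 7.63-fold higher (8.94 CPM, free RNA 8.52), whereas Phlda1 was 6.21-fold lower. In Pkhd1-high nuclei 7 of 15 were called higher and 1 lower (median 0.59), with Dusp4 21.7-fold higher (25.4 against 1.17 CPM), Dusp5 8.68-fold higher (4.93 CPM, free RNA 4.71) and Phlda1 5.09-fold lower. Within Pkhd1-high nuclei, 6 of 11 were higher on the Zfp804a/Hmga2 side and none lower (median 1.15, beside -0.10), among them the receptor feedback gene Spry2 (16.9-fold; 6.50 to 55.8; 30 against 5 UMIs) and Etv5 (4.70-fold). Between stellate nuclei and fibroblasts Spry2 was 2.40-fold higher, the 1 of 13 called higher, and 3 were lower, led by Etv4 with 0 against 36 UMIs, at least 10.3-fold lower against the same floor. None of 8 was called between hepatocyte zones. Of all genes tested, 19% were higher and 8.17% lower in Gpc3-high nuclei (median 0.26), and 19.6% and 12.7% in Pkhd1-high nuclei (median 0.21). These shares were 6.09% and 8.99% on the Zfp804a/Hmga2 side and 4.51% and 9.72% in stellate nuclei. For pericentral nuclei they were 3.42% and 3.18%.

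Genes that process the HGF and MST1 precursors went in both directions in Pkhd1-high nuclei. Of 13 genes, 5 were called higher and 6 lower (median 0.86), where 19.6% and 12.7% of all genes were. Hgfac, the liver-made HGF activator, was 6.71-fold lower (13.5 against 90.8 CPM) and F12 6.53-fold lower, while Plat was 14.1-fold higher (21.6 against 1.53 CPM) and St14, which encodes the membrane protease matriptase, 9.80-fold higher. In Gpc3-high nuclei 6 of 12 were higher and 1 lower (median 0.76), with St14 23.7-fold higher (51.2 against 2.16 CPM), the protease inhibitor gene Spint1 21.8-fold higher and Hgfac 4.26-fold lower. Hgfac was highest in periportal hepatocytes at 97.9 CPM, and St14 (67.8), Spint1 (20.2) and Spint2 (131) in ductal nuclei. On the Zfp804a/Hmga2 side of the Pkhd1-high nuclei Plat was 10.1-fold higher and Serpina5 10.1-fold lower (3.32 to 49.7; 3 against 85 UMIs), with 3 of 12 higher and 1 lower. Stellate nuclei held 7.41-fold less Plat than fibroblasts, with 0 of 8 higher and 3 lower. Shares of all genes called higher and lower were 19% and 8.17% in Gpc3-high nuclei. They were 6.09% and 8.99% on the Zfp804a/Hmga2 side and 4.51% and 9.72% in stellate nuclei.

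Of 10 MET partners and restraints, 3 were called higher and 1 lower in each tumour gate (medians 0.32 and 0.57), beside shares over all genes of 19.6% higher and 12.7% lower for Pkhd1-high and 19% and 8.17% for Gpc3-high nuclei. Cd44, a co-receptor of MET, was 16.3-fold higher in Pkhd1-high (225 against 13.8 CPM) and 8.99-fold higher in Gpc3-high nuclei. Itga6 was 9.84-fold and 11.0-fold higher, and Itgb4 14.4-fold higher in Gpc3-high nuclei. Errfi1, which encodes an inhibitor of receptor kinases, was 9.18-fold lower in Pkhd1-high (393 against 3608 CPM; 8.95 to 9.42) and 2.14-fold lower in Gpc3-high nuclei (1683 CPM). In pericentral against periportal nuclei Plxnb1 (2.16-fold) and Ptprb (2.24-fold) were lower, 2 of 9 with none higher. Against fibroblasts, stellate nuclei had 3.90-fold more Plxnb1 and 4.03-fold less Cd44, with 1 of 9 higher and 3 lower, and Plxnb1 was 3.96-fold lower and Itgb4 4.90-fold higher on the Zfp804a/Hmga2 side. For all genes the shares were 3.42% higher and 3.18% lower in pericentral nuclei, and 4.51% and 9.72% in stellate nuclei.

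**Figure D5:**
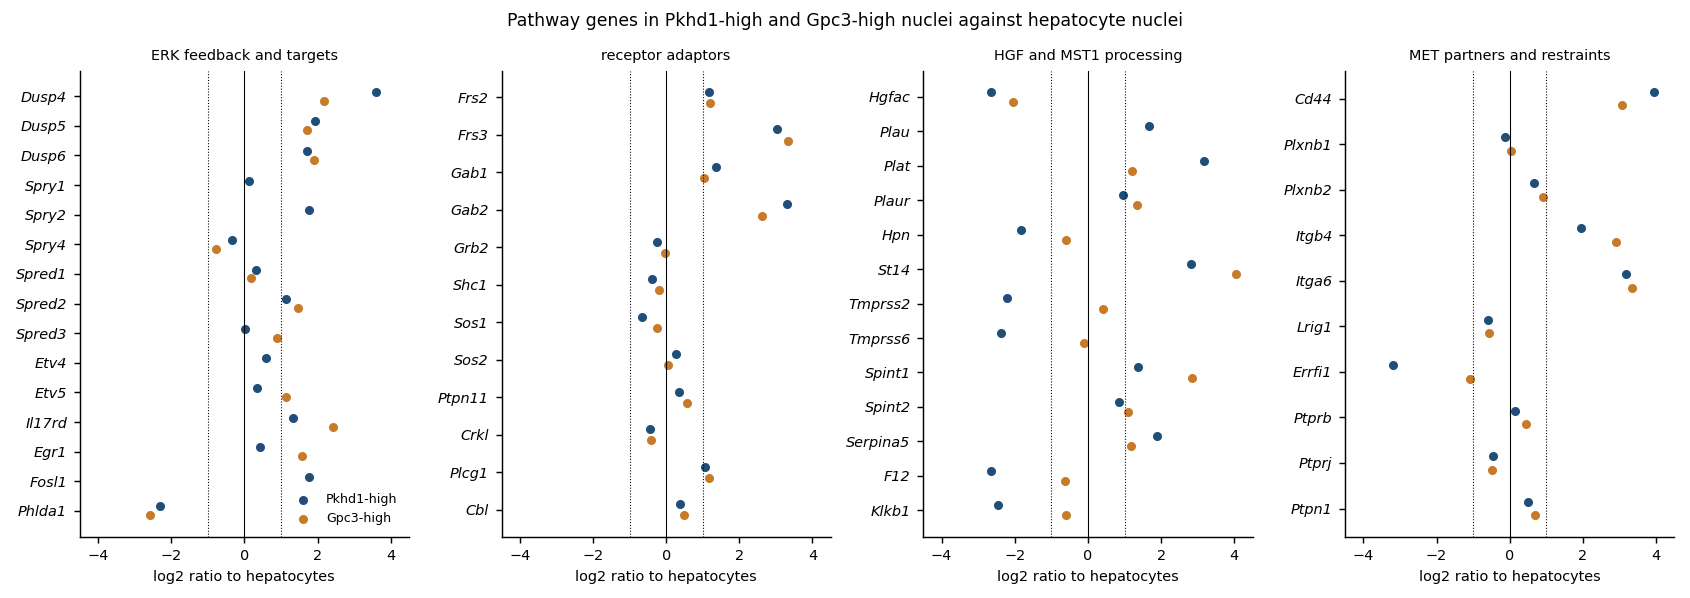
Log2 ratio to hepatocyte nuclei (x axis) of the genes of 4 pathway lists (y axis, 1 panel a list) in Pkhd1-high (blue) and Gpc3-high (orange) nuclei, 1 point a gene with at least 20 UMIs over both classes; dotted lines mark a log2 ratio of 1 in size. Adaptor genes past those lines are all on the higher side in both classes, with Gab2 at 3.30 and 2.63, while Errfi1 lies on the lower side at -3.20 and -1.10.

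Heparan sulfate, the sugar chain that both FGFs and HGF bind, is built and edited by 16 listed genes. In Pkhd1-high nuclei 5 were called higher and 2 lower (median 0.29), where 19.6% and 12.7% of all genes were, with Hs3st1 31.4-fold higher (107 against 6 UMIs), Hs2st1 2.66-fold higher (294 against 110.5 CPM), Hs3st3b1 7.19-fold lower and Glce 2.92-fold lower. In Gpc3-high nuclei 2 of 15 were higher and 2 lower (median 0.21), with Hs3st3b1 5.90-fold lower. Stellate nuclei held 435 CPM of Hs3st3b1, 3.90-fold over fibroblasts, and fibroblasts held Hs6st2 (449 against 5 UMIs, 76.8-fold; 32.6 to 238) and Sulf1 (494 against 57.1), with 2 of 14 higher and 3 lower in stellate nuclei. Sulf1, which removes sulfates from the chain, was highest in mesothelial nuclei at 2033 CPM. Sulf2 was 5.01-fold lower in pericentral than in periportal nuclei, the 1 gene of 13 called, and 13.1-fold higher on the Zfp804a/Hmga2 side (87.3 against 6.68 CPM), where 4 of 14 were higher and 1 lower. All-gene shares, higher and lower, were 19% and 8.17% in Gpc3-high nuclei and 4.51% and 9.72% in stellate nuclei. They were 3.42% and 3.18% in pericentral nuclei and 6.09% and 8.99% on the Zfp804a/Hmga2 side.

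The liver endocrine route, which includes the bile acid sensor gene Nr1h4 and Cyp7a1 (the enzyme that sets the pace of bile acid production), had a median below that of all genes in both tumour gates. In Pkhd1-high nuclei 3 of 8 were called lower and 1 higher (median -0.81): Cyp7a1 15-fold lower (14.6 against 219 CPM), the bile acid transporter gene Slc10a2 9.62-fold lower, Ppara 2.61-fold lower and the exporter gene Slc51a 10.2-fold higher (3.62 against 0.355 CPM). In Gpc3-high nuclei Cyp7a1 was 11.6-fold and Slc10a2 4.59-fold lower, with 2 of 6 lower and none higher (median -0.71), while Nr1h4 was at 964 CPM beside 968 in periportal hepatocytes. Cyp7a1 was 15.6-fold higher in pericentral than in periportal hepatocytes (532 against 34.0 CPM), the 1 of 6 called. Fgfr4 and Klb differed there by at most 1.16-fold, and a link between these genes and the Cyp7a1 level was not tested. Nr1h4 was highest in stellate nuclei at 1302 CPM, 3.56-fold over fibroblasts. On the Zfp804a/Hmga2 side Ppara was 3.22-fold lower, with 2 of 7 lower. Over all genes, 12.7% were lower and 19.6% higher in Pkhd1-high nuclei (median 0.21). For Gpc3-high nuclei it was 8.17% and 19% (median 0.26). Shares of all genes were 3.42% higher in pericentral nuclei and 8.99% lower on the Zfp804a/Hmga2 side.

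The genes with the most similar pattern over the 14 classes were named by Pearson correlation of log2 CPM, which describes points that share 1 pool of libraries and its free RNA, so no p was taken. Hgf was closest to Rerg (0.982), Egfem1 (0.980) and Cyp20a1 (0.956). Mst1 was closest to Tfpi2 (0.984) and Fpgs (0.978), and Fgfr4 to Fads6 (0.971), Igsf5 (0.963) and Map7 (0.962). Fgfr3 went with Tm4sf4 (0.939), Dsc2 (0.895) and Camkmt (0.892), Klb with Zswim5 (0.937), Crot (0.934) and Zfyve1 (0.929), and Met with Mpzl2 (0.925), Cgn (0.922) and Slc4a4 (0.898). The closest genes to Fgf1 were Pcmtd1 (0.909), Cep85l (0.903) and Dennd5b (0.886), those to Fgfr2 Adgra3 (0.931), Rif1 (0.912) and Ppp2r3a (0.854), and those to Fgfr1 Mef2d (0.830), Golph3 (0.825) and Fbln2 (0.800). Fgfr1 thus had the weakest nearest neighbour, and Mst1r, with 57 UMIs over the classes, was too low to be placed.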

How the data were processed

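Single nuclei of frozen mouse liver were profiled in 2 samples of 1 group, held as 1 pooled matrix. The values are counts of UMIs per gene and barcode as deposited by the authors, not normalized. Cell Ranger 5.0 and the mm10 build are listed in the submitters' processing notes. Version 5.0.0 wrote the filtered matrix and version 4 the unfiltered one, per the file headers. The filtered matrix held 17169 barcodes and 95130408 UMIs, and both matrices agreed in every entry for those barcodes. No columns of other samples were set aside.

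Barcodes under 500 UMIs or 300 genes, or with over 5% mitochondrial UMIs, were removed. A marker was met when its UMIs exceeded the free RNA expected at the barcode's depth at a Poisson p of 0.02, and a class needed at least 3 markers and no second lineage; these thresholds were set after the data were seen. At exactly the minimum were 578 of 1578 hepatocyte, 195 of 397 Gpc3-high and 522 of 1744 Pkhd1-high nuclei. The Kupffer class had 54 of its 63 nuclei in a mixed cluster. Nuclei that pass several gates were left out, and Scrublet in scanpy 1.11.5, run on the 9632 barcodes with at least 2000 UMIs, called 323 doublets, which were kept and left out as an alternative.

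Raw UMIs were summed per class and divided by the class total (CPM). Log2 ratios had a pseudocount of 1 CPM, a filter of at least 20 UMIs over both classes and a call at 2-fold; folds carry exact conditional Poisson 95% intervals and shares Clopper-Pearson ones. All intervals and floors (3 counts) cover counting error only. Shares were also read with each nucleus thinned to 1500 UMIs, leaving out 15 shallower hepatocytes, 2 Gpc3-high, 4 Pkhd1-high, 5 ductal and 7 stellate nuclei. Clusters (Leiden, leidenalg 0.10.2, resolution 1, 2000 variable genes, 30 components, 15 neighbours) served as an alternative to gates. The ratio, call and interval steps were tested on simulated class sums, and thinning was checked on real nuclei. The gates were not tested on simulated data. From each list the text names the 2 genes with the highest and the 2 with the lowest ratio past the fold, and the highest gene of a class described; other listed genes it names were chosen after their values were seen. Likeness used genes with at least 500 UMIs. Some genes these rules would name are not reported here. The 10 genes, the lists and the markers were chosen with earlier results of these data known, and several listed genes, such as those of the ERK pathway, act downstream of many receptors. Other settings tried were the count and mitochondrial filters, 1 more marker per gate, pseudocounts of 0.1 and 10, no count filter, median-ratio scaling, subtraction of free RNA, and the mean of per-nucleus CPM.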

Additional observations from a re-analysis of the deposited data

How the results depend on the processing

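With no replicates, no value has an error between animals, and no result could be compared with the spread of samples. No paired analysis was possible because all nuclei sit in 1 pooled matrix. For that reason no sample could be left out either. The class with the highest level was the same for 10 of 10 genes in 6 alternatives and for 8 of 10 with clusters (Fgfr2 and Mst1 moved) and at 1500 UMIs per nucleus (Fgfr1 and Fgfr4 moved). With clusters in place of gates, 0 genes were called between Gpc3-high nuclei and hepatocytes, and Hgf reversed to a log2 ratio of -0.26. Of 540 log2 ratios under alternatives, 457 stayed within their counting interval, 82 moved, and 1 called gene reversed; genes that were not called, such as Fgfr2 and Met in Gpc3-high nuclei with median-ratio scaling, count as moved where they changed sign beyond that interval. With free RNA read from barcodes of 1 to 100 UMIs, 7 rather than 9 of the highest levels stood at least 2-fold over it. Between the sides of the Pkhd1-high gate, 3 genes rather than 5 were called with 1 more marker required and 1 with a pseudocount of 10 CPM. Listed pathway genes past 2-fold went from 45 to 24 in Pkhd1-high and from 34 to 18 in Gpc3-high nuclei with a pseudocount of 10, and to 22 in the latter at 1500 UMIs. Between zones they went from 4 to 7 with 1 more marker, 9 with free RNA subtracted, 7 with per-nucleus means, 10 with a pseudocount of 0.1 and 1 with 10. Between the sides they went from 21 to 12 at 1500 UMIs and 11 with a pseudocount of 10. Counts over all genes, higher and lower, went with a pseudocount of 10 from 3313 and 2141 to 1414 and 1263 for Pkhd1-high, from 2969 and 1280 to 1132 and 679 for Gpc3-high, from 491 and 457 to 221 and 149 for the zones, from 501 and 1079 to 283 and 647 for stellate nuclei and from 825 and 1218 to 442 and 455 for the sides. At 1500 UMIs, 1606 were higher in Gpc3-high nuclei, 713 lower in stellate nuclei and 540 higher on the Zfp804a/Hmga2 side. Between zones, 752 were higher with clusters and 766 lower with a pseudocount of 0.1. For stellate nuclei, 1312 were higher with free RNA subtracted, and 1428 were higher and 2592 lower without a count filter. The cause of these shifts was not tested. Depth limits the small classes most: the 63 Kupffer nuclei held 6 UMIs of Klb and 6 of Mst1.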
